A study of Mus musculus with 7 samples.

Results

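Cardiac sarcomere genes were followed in posterior second heart field (pSHF) tissue dissected from E9.5 mouse embryos, the region of mesoderm behind the heart tube that supplies cells to the atria and the atrial septum. The set held 10 genes, the atrial forms *Myh6*, *Myl4* and *Myl7*, the forms known chiefly from ventricle *Myh7*, *Myl2* and *Myl3*, and *Tnnt2*, *Tnni3*, *Tnnc1* and *Actc1*, which work in every chamber. The genes were taken by name, as all 16 probes that the array assigns to them, out of 41174 probes for 27827 gene names. RNA came from 4 pools of *Shh* -/- embryos and 3 pools of *Shh* +/+ embryos, on a mixed C56B/6 and CD-1 background from superovulated *Shh* +/- females crossed to *Shh* +/- males. Tissue was pooled by genotype after genotyping, the number of embryos in a pool is not given in the sources used here, and each pool was hybridized to 1 single-colour array. The dissection took in the dorsal mesenchymal protrusion and the foregut and left the heart out, and the sarcomere genes serve here as a sign of differentiated heart muscle in each pool.

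The sarcomere is the repeating unit of striated muscle in which myosin filaments pull on actin filaments. The myosin heavy chain is the motor, and each heavy chain carries an essential and a regulatory light chain that stiffen and tune its lever arm. Troponin C binds calcium, troponin I holds the thin filament inactive until calcium arrives, and troponin T ties the complex to tropomyosin. In the mouse heart these genes switch on as progenitors leave the second heart field and become cardiomyocytes, and atrial and ventricular forms separate as the chambers grow.

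The probes on which the readings of the isoforms turn are shown first. Both *Myh6* probes carry the array's annotation to a RefSeq transcript of *Myh7* as well, the neighbouring gene on chromosome 14, so that the reading of the atrial heavy chain may include the ventricular one. The first matches an unbroken stretch at chr14:55565256-55565315 (mm9, minus strand) and the second spans an intron at chr14:55563592-55565177 (mm9, minus strand).
*Myh6*, brighter probe: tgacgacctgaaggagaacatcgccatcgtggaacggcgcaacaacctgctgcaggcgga
*Myh6*, second probe: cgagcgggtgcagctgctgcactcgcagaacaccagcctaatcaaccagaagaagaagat
The 2 *Myl4* probes, at chr11:104445435-104445805 and chr11:104445422-104445792 (mm9, plus strand), share 47 of their 60 bases, shown in capitals, and so are no independent readings of the gene.
*Myl4*, brighter probe: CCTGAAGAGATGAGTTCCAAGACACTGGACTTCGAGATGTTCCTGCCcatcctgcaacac
*Myl4*, second probe: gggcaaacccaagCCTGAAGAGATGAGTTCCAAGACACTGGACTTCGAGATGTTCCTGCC
The ventricular light chains are each read here across an intron, *Myl2* at chr5:122553922-122554872 and *Myl3* at chr9:110671632-110671926 (mm9, plus strand).
*Myl2*: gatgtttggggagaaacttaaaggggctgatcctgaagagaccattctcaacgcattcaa
*Myl3*, brighter probe: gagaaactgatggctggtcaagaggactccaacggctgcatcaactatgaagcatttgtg
Each gene is described below by the probe with the highest mean signal, and the second probes of the 6 genes that have them are given after that.

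The 7 arrays lay on 4 slides. Same-numbered pools of the 2 genotypes were on 1 slide for pools 1, 3 and 4. Mutants took the first array position on each slide and wild types the second, and the effects of position and of genotype cannot be told apart. No wild-type array accompanied mutant pool 2, for which the label notes a possible leak during hybridization. Of the second heart field progenitor genes, 11 of 11 were well above background on all 7 arrays (*Isl1* at 11.71 to 12.40 and *Tbx5* at 12.14 to 13.02, in log2 signal). Of all probes, 59.9% to 70.6% were so on each array. The study places *Tbx5* in the heart as well, and these signals do not by themselves show how much posterior heart field a pool held. *Hhip*, a Hedgehog target that binds and restrains the ligand, fell by 2.83 on the log2 scale (limma adjusted p = 0.00127), with wild-type pools at 8.66 to 8.95 and mutant pools at 5.54 to 6.24. *Shh* itself differed by −1.08 (limma adjusted p = 0.0653), *Gli1*, the pathway's activator, by −1.02 (0.0674) and *Ptch1*, its receptor, by −1.17 (0.143), each lower in all 3 same-slide pairs.

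No sarcomere gene passed the test between *Shh* -/- and *Shh* +/+ pools, and the fitted difference was smaller than the pooled SD between pools of a genotype in all but *Myl2*. All 10 genes were well above background on 7 of 7 arrays. All 10 had fitted means higher in the mutants, as did 55.4% of all probes tested. The 10 directions are not independent, since the genes other than *Myl7* moved together over the pools. By limma over 23128 probes, 0 of 10 were called at an adjusted p under 0.05, or at an unadjusted p under 0.05. Of all probes tested, 0.558% were called (129, and 11 with slide as a block), and 7.96% passed the unadjusted threshold. The pools of the genotypes overlapped in each of the 10 genes, whereas they did not overlap at 8.34% of all probes with 7 values. The median log2 difference of the 10 genes was 0.26, against 0.018 over all probes tested. That median was −0.083 without wild-type pool 4, 0.064 without mutant pool 1 and 0.54 without mutant pool 4. Without wild-type pool 4 the fitted differences of *Myl7*, *Myh7*, *Myl3*, *Tnni3*, *Tnnc1* and *Actc1* were below 0, from −0.27 to −0.07. Signals below are normalized log2 values, and differences are log2 values of mutants minus wild types. In pooled tissue, fewer cardiomyocytes and less RNA per cardiomyocyte cannot be told apart.

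**Figure D1:**
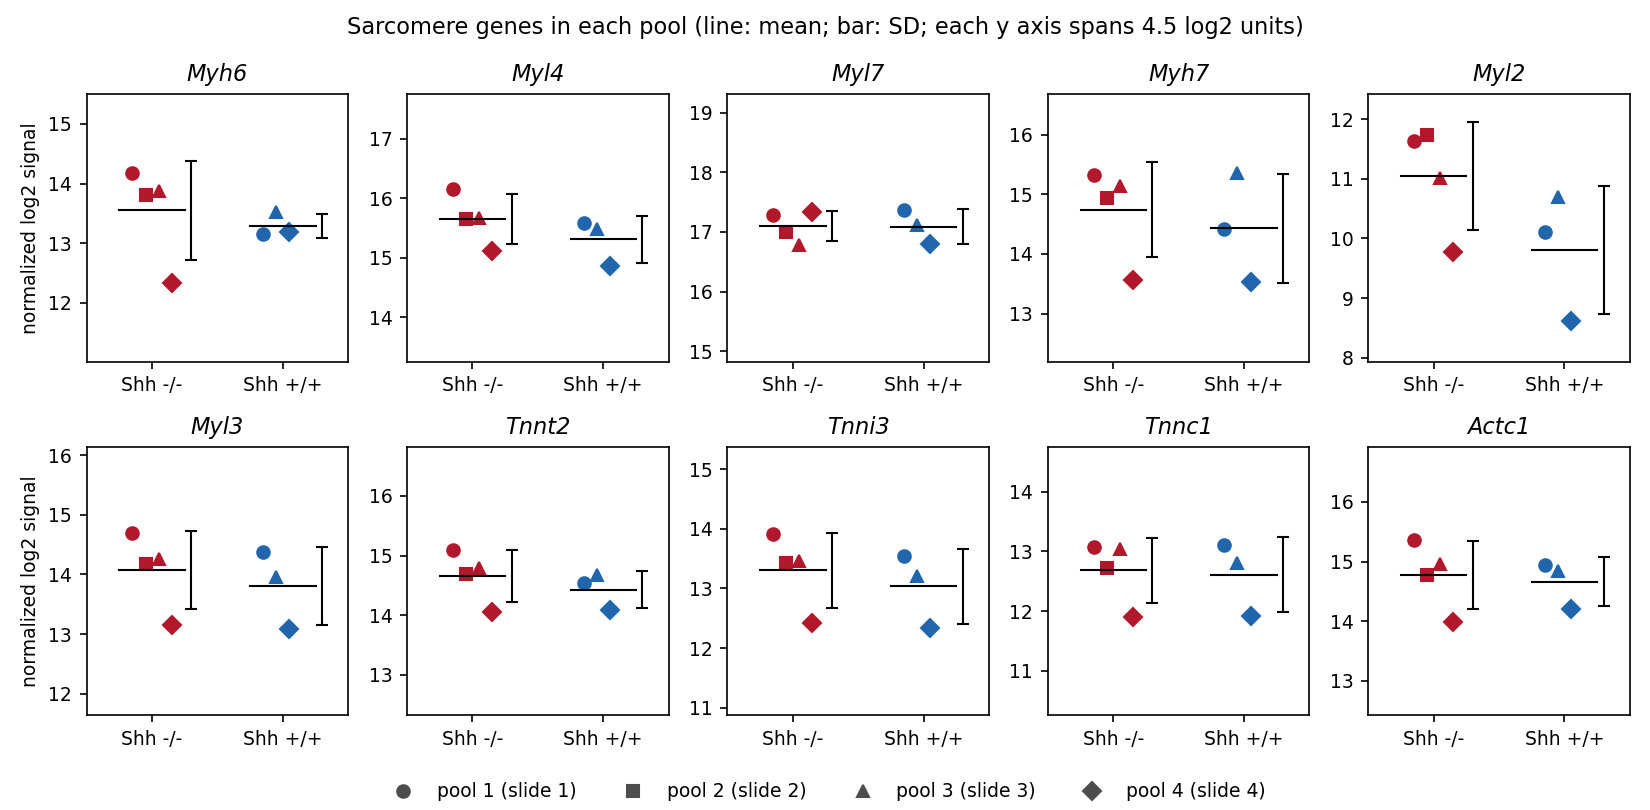
Normalized log2 signal of the brightest probe of each of the 10 sarcomere genes (vertical axis, 4.5 log2 units in every panel) in the 4 *Shh* -/- pools and the 3 *Shh* +/+ pools; the symbol gives the pool number, which is also the slide, the line the mean and the bar the SD. Pool 4 (diamonds) is the lowest mutant pool in 9 genes, and for *Myl7* it is the highest.

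Among the atrial genes, *Myh6* encodes alpha myosin heavy chain, the fast cardiac motor. Its signal was 14.18, 13.80, 13.88 and 12.34 in mutant pools 1 to 4 (in that order here and below), against 13.16, 13.52 and 13.19 in wild-type pools 1, 3 and 4. The first 3 mutant pools lay above every wild-type pool and the fourth lay 0.85 below its slide partner. The fitted difference was 0.26 (standard error 0.39, 95% interval −0.62 to 1.13, limma adjusted p = 0.9997), and the SD was 0.82 in mutants (n = 4) against 0.20 in wild types (n = 3).

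*Myl4* encodes the atrial essential light chain, which embryonic ventricle and skeletal muscle also use. It was at 16.15, 15.65, 15.67 and 15.12 in mutant pools 1 to 4 and at 15.59, 15.49 and 14.86 in wild-type pools 1, 3 and 4. Mutant pools were the higher ones on each shared slide, by 0.56, 0.17 and 0.26 on slides 1, 3 and 4. The fitted difference was 0.33 (standard error 0.26, 95% interval −0.25 to 0.91, limma adjusted p = 0.9997).

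*Myl7* encodes the atrial regulatory light chain, one of the first sarcomere genes of the heart tube. Its log2 signal was 17.28, 17.00, 16.78 and 17.33 in mutant pools 1 to 4, and 17.36, 17.12 and 16.79 in wild-type pools 1, 3 and 4. The genotypes covered almost the same range, and mutant pool 4, the lowest mutant pool for the other 9 genes, was here the highest. The fitted difference was 0.01 (95% interval −0.40 to 0.42), which is the narrowest interval among the 10 genes and runs from 0.758-fold to 1.34-fold.

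Among the ventricular genes, *Myh7* encodes beta myosin heavy chain, the slower motor that dominates the fetal mouse ventricle. It was at 15.33, 14.93, 15.14 and 13.57 in mutant pools 1 to 4 and at 14.41, 15.35 and 13.53 in wild-type pools 1, 3 and 4. The highest value belonged to wild-type pool 3 and the lowest to wild-type pool 4. The fitted difference of 0.31 (standard error 0.49, 95% interval −0.81 to 1.43) changed sign between slides, being 0.92, −0.21 and 0.04 on slides 1, 3 and 4.

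*Myl2* encodes the ventricular regulatory light chain, a marker of ventricular muscle from the heart tube onwards. Its signal was 11.64, 11.74, 11.01 and 9.77 in mutant pools 1 to 4 and 10.11, 10.69 and 8.62 in wild-type pools 1, 3 and 4. Mutant pools 1, 2 and 3 lay above all wild-type pools, and mutant pool 4 lay below 2 of them. The fitted difference, 1.24 (standard error 0.57, 95% interval −0.05 to 2.52), was the largest of the 10 genes and corresponds to a 2.35-fold higher signal. It was 0.64 without wild-type pool 4, 1.68 without wild-type pool 3, 0.77 with array weights and 0.63 in the deposited values, or 1.24 once these were set to 1 median per array. It did not pass the threshold (limma adjusted p = 0.669, unadjusted 0.0576). On shared slides the mutant pool was higher by 1.53, 0.33 and 1.16, and with slide as a block, a fit to which mutant pool 2 adds nothing, the difference was 1.00 (95% interval 0.46 to 1.55, limma adjusted p = 0.179, unadjusted 0.00344).

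*Myl3* encodes the ventricular essential light chain. It was at 14.69, 14.17, 14.26 and 13.15 in mutant pools 1 to 4 and at 14.37, 13.96 and 13.09 in wild-type pools 1, 3 and 4. The values of a slide lay close together, 0.32, 0.31 and 0.06 apart on slides 1, 3 and 4, while slides 1 and 4 lay over 1 log2 unit apart in either genotype. The fitted difference was 0.26 (standard error 0.39, 95% interval −0.61 to 1.14, limma adjusted p = 0.9997).

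The 4 genes of all chambers behaved alike. *Tnnt2*, troponin T, was at 15.09, 14.69, 14.80 and 14.06 in mutant pools 1 to 4 and at 14.54, 14.67 and 14.08 in wild-type pools 1, 3 and 4. *Tnni3*, cardiac troponin I, was at 13.91, 13.43, 13.46 and 12.42 in the mutants and at 13.55, 13.21 and 12.34 in the wild types. In the pools of slide 4 these 2 genes sat at the bottom of their range in either genotype, and the partners on that slide differed by 0.08 or less. *Tnnc1*, troponin C, was at 13.07, 12.73, 13.04 and 11.90 in the mutants and at 13.11, 12.81 and 11.91 in the wild types. *Actc1*, cardiac alpha actin of the thin filament, was at 15.36, 14.78, 14.96 and 13.99 in the mutants and at 14.95, 14.84 and 14.20 in the wild types. The fitted differences were 0.23 for *Tnnt2*, 0.27 for *Tnni3*, 0.08 for *Tnnc1* and 0.11 for *Actc1*, with standard errors from 0.24 to 0.37 and a limma adjusted p of 0.9997 each.

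**Figure D2:**
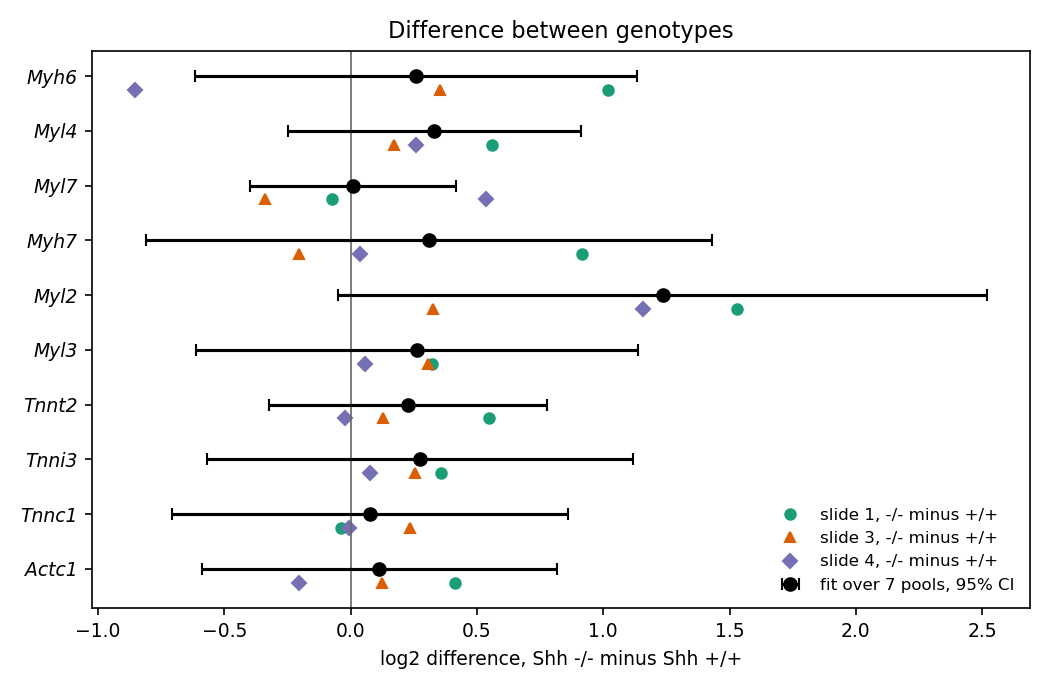
Log2 difference between *Shh* -/- and *Shh* +/+ pools (horizontal axis) for each sarcomere gene: black points are the fit over 7 pools with its 95% confidence interval, coloured symbols the differences within slides 1, 3 and 4. All 10 intervals include 0, and *Myl2* has the widest, from −0.05 to 2.52.

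Counted by slide, the mutant pool was higher in 8 of 10 genes on slide 1 (median difference 0.48), in 8 on slide 3 (0.20) and in 6 on slide 4 (0.045). *Myl4*, *Myl2*, *Myl3* and *Tnni3* were higher in the mutant on all 3 slides, and no gene was lower on all 3. With slide as a block, 0 of 10 genes were called by limma, and 2 of them, *Myl2* and *Myl4* (difference 0.33, adjusted p = 0.548), had an unadjusted p under 0.05. The block leaves mutant pool 2, which may have leaked, without a partner, so that the differences equal those of a fit without it, with a median of 0.22 over the 10 genes. Leaving out the 2 pools of slide 4, an alternative chosen after seeing the data, gave a median of 0.24 and 0 genes called by limma.

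Second probes of *Myh6*, *Myl4*, *Myh7*, *Myl3* and *Tnni3* also had fitted differences above 0, of 0.18, 0.31, 0.20, 0.16 and 0.27, and no call. The second *Myh6* probe was at 11.85 in mutant pool 4 and between 12.51 and 13.68 in the other 6 pools, again lowest in that pool. The second *Myl3* probe was dim, at 8.56 to 10.12, and had the same low pools as the bright one. The second *Tnnt2* probe was different. It was designed on a cDNA clone that the RefSeq table does not pair with a gene, lay at 5.13 to 5.91, and was highest in mutant pool 2 and next in wild-type pool 4, where the first *Tnnt2* probe was near its lowest. The 2 *Myh7* probes overlap and are not independent, yet they parted in pool 4. The second was highest in mutant pool 1 (15.38) and lowest in mutant pool 4 (13.09), where the brighter one read 13.57. On slide 4 its difference was −0.43, against 0.04 for the brighter probe.

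In all genes but *Myl2* the pooled SD between pools of a genotype exceeded the fitted difference between genotypes. The sarcomere genes other than *Myl7* differed together. Pool 4 was the lowest mutant pool in 9 of 10 genes, the exception being *Myl7*, and the lowest wild-type pool in 9 of 10, the exception being *Myh6*. In 8 genes the 2 lowest of all 7 values were those of the 2 pools 4, a pattern shared by 7.11% of all probes tested. Mutant pool 1 was the highest mutant pool in 8 genes. The range over the 7 pools was 0.57 for *Myl7*, between 1.03 and 1.84 for *Tnnt2*, *Tnnc1*, *Myl4*, *Actc1*, *Tnni3*, *Myl3*, *Myh7* and *Myh6*, and 3.12 for *Myl2*, which is an 8.68-fold span. A range over 1 log2 unit was found in 9 of the 10 genes and in 15.0% of all probes tested.

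The SD between pools of a genotype, pooled over the genotypes, ran from 0.268 for *Myl7* and 0.388 for *Tnnt2* to 0.844 for *Myh7* and 0.972 for *Myl2*. Its median over the 10 genes was 0.603, against 0.189 over the 23026 probes with 7 values and 0.156 over the 8464 of them at least as bright as the dimmest of the 10. *Myl2* was more variable than 99.8% of all probes and *Myl7* more than 73.3%, and 7 of the 10 genes lay above the 95th percentile. The intervals above, from 4 pools against 3, do not rest on this spread alone. For them limma drew the variance of each gene towards that of all probes. For genes as variable as these, they are narrower than the gene's own SD would give.

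**Figure D3:**
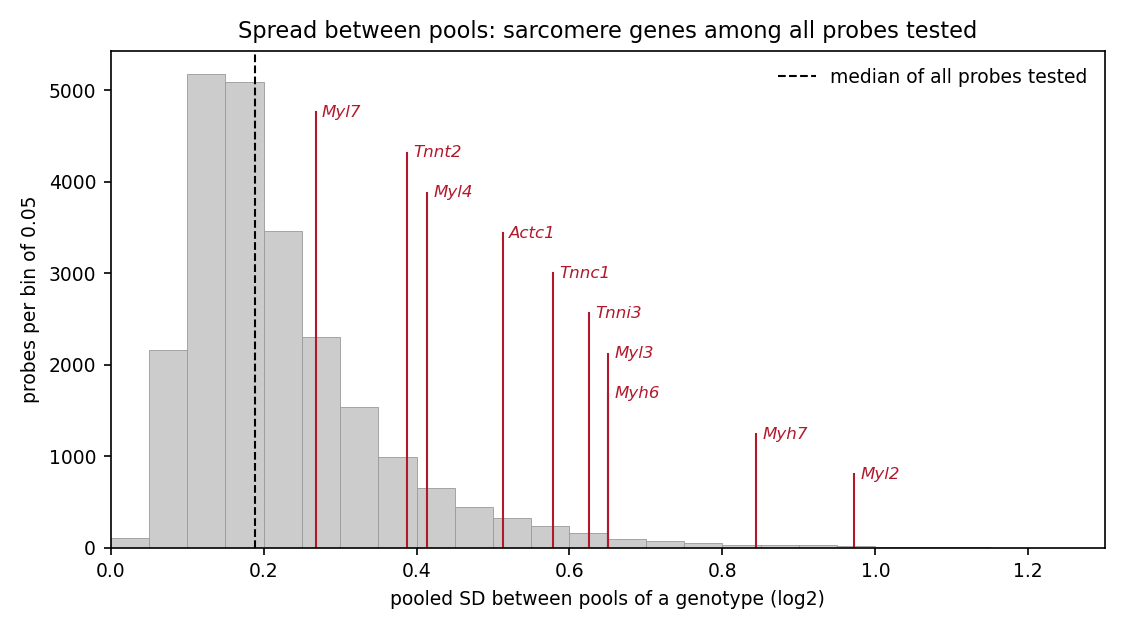
Number of probes (vertical axis, bins of 0.05) by the pooled SD between pools of a genotype in log2 units (horizontal axis), with the 10 sarcomere genes as red lines at their own SD; line heights serve the labels only, and *Myh6* and *Myl3* coincide. The genes reach from 0.268 (*Myl7*) to 0.972 (*Myl2*), all to the right of the median of all probes (0.189, dashed).

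Each gene's deviation from its own wild-type mean was then averaged over the genes of a kind, which sets no probe's level against another's. Averaged over the 10 genes, the deviation was 0.82, 0.45, 0.45 and −0.48 in mutant pools 1 to 4 and 0.27, 0.32 and −0.59 in wild-type pools 1, 3 and 4. The number of genes above their wild-type mean was 10, 9, 9 and 1 in the mutants, and 8, 10 and 0 in the wild types. Both pools of slide 4 lay below 0 and the other 5 pools above it. The genotype difference of 0.31 was smaller than the pooled SD of 0.54 between pools.

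The same average was taken separately for atrial and ventricular genes. These names are those of the isoforms. How far each gene was confined to its chamber at E9.5 was not measured, so the sets do not give the chamber of the cells in a pool. The atrial genes stood at 0.64, 0.25, 0.21 and −0.31 in mutant pools 1 to 4 and at 0.14, 0.15 and −0.29 in wild-type pools 1, 3 and 4. The ventricular genes stood at 1.20, 0.93, 0.79 and −0.52 in the mutants and at 0.28, 0.65 and −0.93 in the wild types. Both kinds were low in the 2 pools 4, and the ventricular genes moved over a wider range than the atrial ones in either genotype. The genes of all chambers, at 0.67, 0.23, 0.38 and −0.59 in the mutants and 0.35, 0.20 and −0.55 in the wild types, were also lowest in pool 4 of each genotype.

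The atrial minus ventricular difference of these deviations was −0.57, −0.68, −0.58 and 0.21 in mutant pools 1 to 4 and −0.14, −0.50 and 0.65 in wild-type pools 1, 3 and 4. Pool 4 of either genotype, lowest in the average over the 10 genes, had the highest atrial minus ventricular value, and the genotypes overlapped. Mutants averaged −0.40 (pooled SD 0.49), and the slide partners differed by −0.42, −0.08 and −0.44. Without wild-type pool 4 the difference between genotypes was −0.08, without wild-type pool 3 it was −0.65 and without mutant pool 4 it was −0.61. With array weights it was −0.12 and in the deposited values −0.23. Left without *Myh6*, whose probes are also annotated to *Myh7*, it was −0.43.

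**Figure D4:**
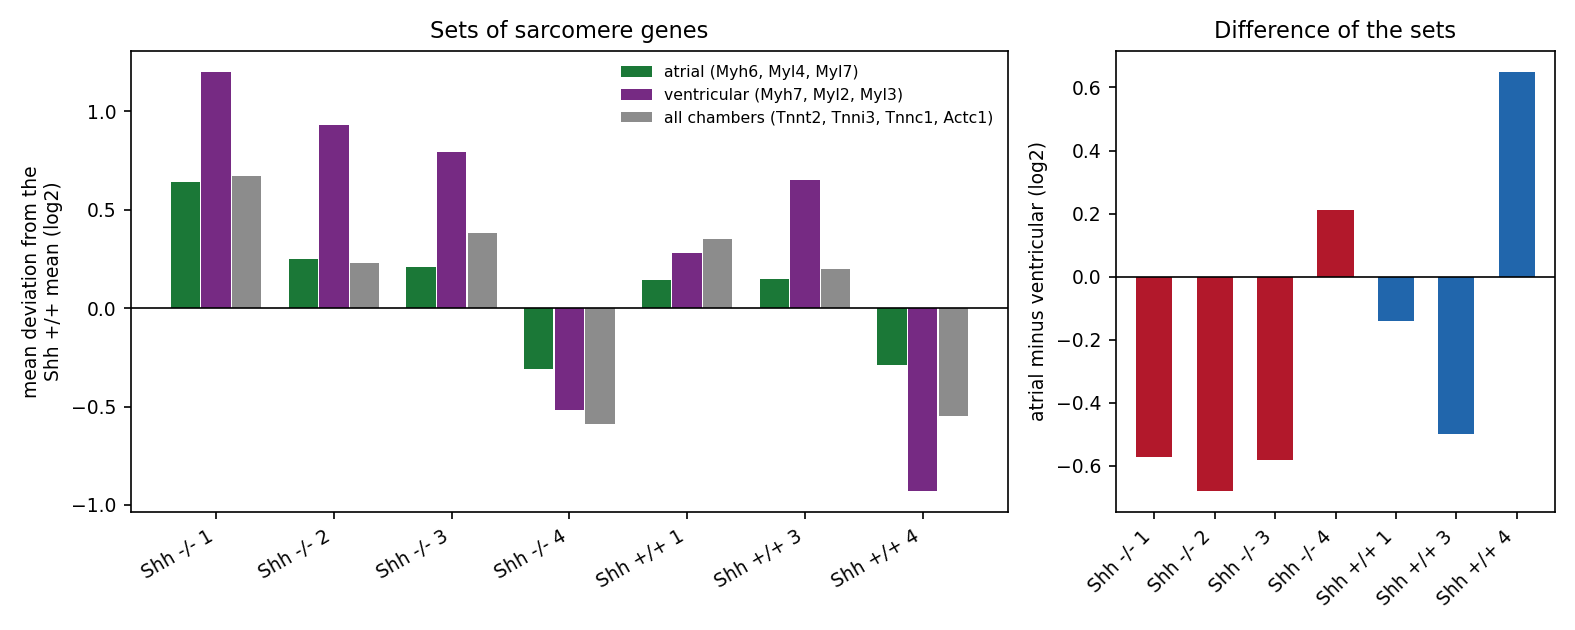
Left, mean log2 deviation from the *Shh* +/+ mean (vertical axis) of the atrial, ventricular and all-chamber genes in each pool; right, the atrial minus the ventricular deviation, red for *Shh* -/- and blue for *Shh* +/+ pools. The 2 pools 4 are low in all 3 sets and are the only pools with a positive difference, 0.21 and 0.65.

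Matched pairs of isoforms split this difference. For the regulatory light chains, *Myl7* minus *Myl2* was −1.64, −2.02, −1.51 and 0.27 in mutant pools 1 to 4 and −0.04, −0.85 and 0.89 in wild-type pools 1, 3 and 4. The mutant mean was −1.23 with a pooled SD of 0.96, and the mutant pool was lower on each shared slide (by −1.60, −0.66 and −0.62). For the essential light chains, *Myl4* minus *Myl3* was −0.05, −0.02, −0.11 and 0.46 in the mutants and −0.28, 0.03 and 0.25 in the wild types, a genotype difference of 0.07 (pooled SD 0.26). For the heavy chains, *Myh6* minus *Myh7* by the brighter probes was near its wild-type mean in all 4 mutant pools, from −0.12 to 0.01. It was at −0.12, −0.68 and 0.80 in the wild types. The second *Myh7* probe, lower than the brighter one in mutant pool 4 (13.09 against 13.57), was not used for this. Of the regulatory light chains, *Myl2* differed by 1.24 and *Myl7* by 0.01, and the other 2 pairs differed by less than their pooled SD.

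Across the 7 pools the genes other than *Myl7* followed each other closely. The Pearson correlation of a gene with the mean of the other 9 was 0.984 for *Tnnt2*, 0.972 for *Tnni3*, 0.965 for *Myl4*, 0.962 for *Myl3* and 0.954 for *Actc1*. It was 0.912 for *Myh7*, 0.909 for *Tnnc1*, 0.852 for *Myl2* and 0.803 for *Myh6*, and 0.109 for *Myl7*. Among the 36 pairs without *Myl7* the lowest correlation was 0.718 and the median 0.878, and *Myl7* had correlations from −0.316 to 0.309. These points share arrays and slides, and the correlations are a description.

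The place of *Myl7* apart from the other genes depended on how the brightest spots were scaled. Its spot ranked 84th to 142nd from the top among 43379 spots on each array, with none saturated. The median deviation of the other 199 brightest probes from their means was 0.09, −0.10, −0.38 and 0.41 in mutant pools 1 to 4 and 0.19, −0.06 and −0.16 in wild-type pools 1, 3 and 4, and *Myl7* correlated with it at 0.897. Quantile normalization brought that median to between −0.01 and 0.02 in every pool. *Myl7* then read 17.21, 17.05, 17.14 and 16.95 in the mutants and 17.15, 17.19 and 16.95 in the wild types. On that scale pool 4 was the lowest in either genotype, as for the other genes, the correlation with the mean of the other 9 was 0.867, and the range was 0.262. Under the 75th percentile scaling *Myl7* stayed apart (correlation 0.121). With quantile normalization the 2 pools 4 were the lowest of all 7 in 9 genes, all but *Myh6*, and the atrial minus ventricular difference between genotypes was −0.38.

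**Figure D5:**
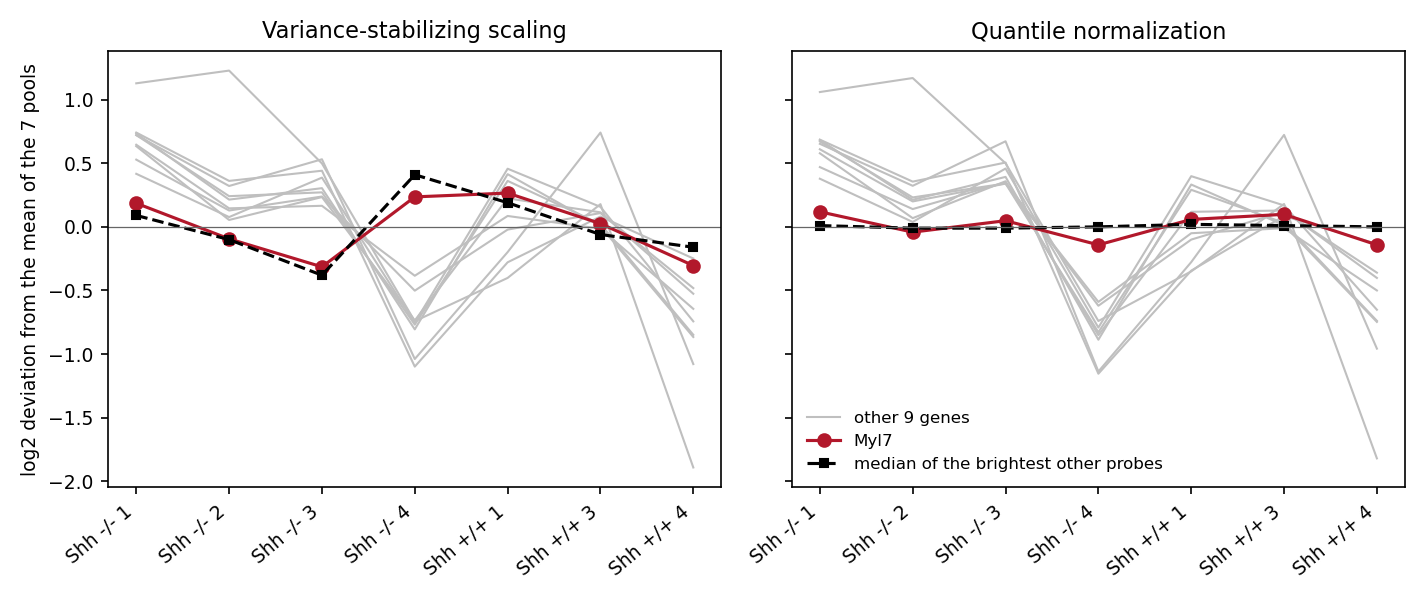
Log2 deviation from the mean of the 7 pools (vertical axis) for *Myl7* (red), the other 9 sarcomere genes (grey) and the median of the other 199 brightest probes (dashed), after the variance-stabilizing scaling and after quantile normalization. On the left *Myl7* follows the brightest probes (0.41 in mutant pool 4 for that median), and on the right it is lowest in the 2 pools 4 (16.95 in each).

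The gene starts gave few shared letters. RefSeq start sites on GRCm38.p6 were at hand for all 10 genes, 13 promoters in all, and the 250 bases before each start were searched on both strands. The CArG box, the site known to bind serum response factor, was found in 3 of the 10 genes, *Actc1*, *Myl3* and *Myl7*, and in 1.47% of the 32851 mouse promoters of that length. The MEF2 site was found in 0 of the 10 and in 2.92% of all, GATAA in 4 of the 10 (*Myl2*, *Myl3*, *Myl7* and *Tnnt2*) and in 22.6% of all. TATAAA was found in *Myl2* alone (12.4% of all) and TNAAGTG in *Myh7* alone (10.1%). The 3 windows are shown because *Actc1* and *Myl3* moved with the other genes and *Myl7* did not under the first scaling. Capitals mark the CArG box, which begins 47, 85 and 61 bases before the start of *Actc1*, *Myl3* and *Myl7*.
*Actc1*, chr2:114052876-114053125, minus strand: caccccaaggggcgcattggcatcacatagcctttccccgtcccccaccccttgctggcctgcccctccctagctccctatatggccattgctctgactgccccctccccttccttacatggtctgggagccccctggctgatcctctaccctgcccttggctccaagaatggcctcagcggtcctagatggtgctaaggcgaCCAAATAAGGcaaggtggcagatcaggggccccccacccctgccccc
*Myl3*, chr9:110763428-110763677, plus strand: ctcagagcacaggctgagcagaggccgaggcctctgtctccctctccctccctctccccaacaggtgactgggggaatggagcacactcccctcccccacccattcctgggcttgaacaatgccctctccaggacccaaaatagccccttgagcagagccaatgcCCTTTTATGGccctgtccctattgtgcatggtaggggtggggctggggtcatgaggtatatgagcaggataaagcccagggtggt
*Myl7*, chr11:5898783-5899032, minus strand: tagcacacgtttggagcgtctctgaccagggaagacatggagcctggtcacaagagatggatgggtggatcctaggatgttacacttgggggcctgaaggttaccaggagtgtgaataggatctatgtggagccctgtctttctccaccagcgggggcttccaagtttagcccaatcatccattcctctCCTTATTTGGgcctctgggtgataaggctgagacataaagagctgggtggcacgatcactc

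The wider contractile apparatus showed the same picture as the 10 genes. Of 30 other sarcomere and Z-disc genes 28 were tested, 22 with higher and 6 with lower fitted means in the mutants, and 0 were called by limma (1, *Tpm2*, at an unadjusted p under 0.05). Their median difference was 0.16. The largest belonged to *Actn2*, the Z-disc actinin (0.43), *Tcap*, the titin cap (0.42), *Cryab*, a small heat shock protein of the Z-disc (0.40), and *Tnni1*, the slow skeletal troponin I of the fetal heart (0.37), each with an adjusted p of 0.839 or more. Averaged over the list, the deviation from the wild-type mean was −0.53 in mutant pool 4, and 0.61, 0.21 and 0.31 in mutant pools 1, 2 and 3. A correlation over 0.8 with the mean of the 10 genes was found in 19 of these 28 genes, in 10 of 13 cardiomyocyte genes outside the sarcomere, and in 4.33% of the 13988 genes compared.

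Of 16 cardiomyocyte genes outside the sarcomere that were tested, 10 had higher and 6 lower fitted means in the mutants, with a median of 0.16 and 0 called by limma. At a limma unadjusted p under 0.05 there were 3, where 7.96% of all probes tested passed. The largest differences were *Cox8b*, a muscle subunit of cytochrome oxidase (−0.84, adjusted p = 0.339), *Nppb*, the B-type natriuretic peptide (0.80, 0.488), *Corin*, the protease that activates natriuretic peptides (0.62, 0.212), and *Popdc2*, a membrane protein of cardiomyocytes (0.48, 0.680). The summed signal of the list was 15.17 to 16.16 in mutants and 15.17 to 15.81 in wild types, so that the genotypes overlapped. *Nppb* was lowest of each genotype in the pools of slide 4, at 9.47 in mutant pool 4 and 8.85 in wild-type pool 4.

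Chamber genes that are no part of the sarcomere gave 1 call, on the ventricular side, where 0.558% of all probes tested were called. A correlation over 0.8 with the sarcomere mean was found in 0 of the 4 ventricular genes and in 2 of the 4 atrial genes. Of 4 ventricular genes all 4 had higher fitted means in the mutants, and 1, *Cited1*, a transcriptional coactivator of the early ventricle and of other embryonic tissues, was called. *Cited1* was at 12.88, 13.04, 12.86 and 12.99 in mutant pools 1 to 4 and at 12.26, 12.23 and 12.27 in wild-type pools 1, 3 and 4, a difference of 0.69 (standard error 0.10, limma adjusted p = 0.0319). Its pools of slide 4 were not lower than the others. *Hand1* (0.52, adjusted p = 0.648), *Hey2* (0.49, 0.264) and *Irx4* (0.11, 0.9997), all transcription factors, were not called. Of 4 atrial genes 2 had higher and 2 lower fitted means, and 0 were called by limma (1 at an unadjusted p under 0.05). *Sln*, sarcolipin, the atrial inhibitor of the calcium pump, was at 7.12, 6.25, 6.55 and 5.97 in the mutants and at 8.99, 7.14 and 7.83 in the wild types, a difference of −1.51 (limma adjusted p = 0.220). *Kcna5*, an atrial potassium channel, differed by 0.19, *Mybphl* by −0.09 and *Angpt1* by 0.02.

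The genes whose values over the 7 pools were most like the mean of the 10, among 13988 genes above background on all arrays, were *Nexn*, which encodes nexilin of the Z-disc (Pearson correlation 0.991), *Pcgf5* (0.989), *Hopx* (0.987), *Calcrl* (0.985), *Cryab* (0.984), *Hspb1* (0.983), *Klhl30* (0.983), *Atp1b1* (0.982), *Pgam2* (0.980) and *Amn* (0.979). *Nexn* was at 12.48, 12.18, 12.32 and 11.50 in mutant pools 1 to 4 and at 12.17, 12.14 and 11.41 in wild-type pools 1, 3 and 4. *Hopx* was at 10.60, 10.13, 10.23 and 9.14 in the mutants and at 10.12, 10.11 and 9.28 in the wild types. In each of these 2 genes the pools of slide 4 were the 2 lowest. The genes listed here were chosen by their likeness to a mean that is lowest in those pools. The pattern therefore follows from the choice. None of the 10 was called by limma, and their fitted differences ran from 0.10 for *Calcrl* to 0.40 for *Cryab*.

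Markers of other tissues that the dissection can hold are given for comparison, and their part in the sarcomere values was not tested. Of 12 skeletal muscle genes tested, 7 had lower and 5 higher fitted means in the mutants and 0 were called by limma (at an unadjusted p under 0.05, 5 lower and 2 higher). That unadjusted threshold was passed by 7.96% of all probes tested. *Myog*, a myogenic factor, differed by −1.97 (adjusted p = 0.317), *Tnnc2*, fast troponin C, by −1.73 (0.0803), *Myh3*, embryonic myosin, by −1.68 (0.272), and *Cdh15* by −0.73 (0.352). *Myog* was dim, well above background on 5 of 7 arrays, at 3.93 to 4.96 in the mutants and 4.68 to 7.66 in the wild types. On slide 3 it was higher in the mutant (by 0.28). *Tnnc2* was at 10.43, 8.70 and 9.95 in wild-type pools 1, 3 and 4 and at 7.72 to 8.14 in the mutants. The summed signal of the skeletal list was 13.89 to 14.80 in mutants and 14.08 to 14.50 in wild types. Most of that sum came from *Myl1*, *Myh8* and *Tnni2*, with fitted differences of 0.37, 0.22 and 0.25. It says little of the dimmer *Myog*, *Tnnc2* and *Myh3*. All 7 smooth muscle genes had higher fitted means in the mutants, by 0.07 to 0.37, with 0 called by limma (0 at an unadjusted p under 0.05), and the largest were *Tagln* (0.37), *Myh11* (0.34), *Actg2* (0.27) and *Cnn1* (0.18). *Myh11* was at 7.78 in mutant pool 2 and at 5.79 to 6.41 in the other 6 pools.

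Of 11 second heart field progenitor genes 6 had lower fitted means in the mutants and 0 were called by limma (5 at an unadjusted p under 0.05), with *Osr1* at −0.88 (adjusted p = 0.232), *Foxf1a* at −0.80 (0.0928), *Tbx1* at −0.78 (0.309) and *Fgf10* at 0.56 (0.189). A correlation over 0.8 with the sarcomere mean was found in 1 of these 11. All 9 liver bud genes had higher fitted means in the mutants, as did 55.4% of all probes tested. By limma 4 were called, *Fga* (1.45, adjusted p = 0.0440), *Alb* (1.22, 0.0494), *Ttr* (0.91, 0.0319) and *Fgb* (0.82, 0.0493). Of all probes tested, 0.558% were called (129, and 11 with slide as a block). A limma unadjusted p under 0.05 was found at 7.96% of all probes tested. The summed liver signal was 17.20 to 17.63 in mutants and 17.07 to 17.19 in wild types. Most of that sum was *Afp*, which was not called (0.17, limma adjusted p = 0.9997). Its pools overlapped, at 16.68 to 17.33 in mutants and 16.78 to 16.97 in wild types. All 8 erythroid genes had lower fitted means, with 0 called by limma (3 at an unadjusted p under 0.05), among them *Klf1* (−0.53), *Gata1* (−0.50) and *Alas2* (−0.40). A correlation over 0.8 with the sarcomere mean was found in 3 of 7 smooth muscle genes, in 2 of the 10 skeletal muscle genes compared, and in 0 of 9 liver and 0 of 8 erythroid genes.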

How the data were processed

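RNA of 4 *Shh* -/- and 3 *Shh* +/+ pools was measured on 7 single-colour Agilent arrays. The deposited scanner files hold spot intensity, read by the authors with Feature Extraction 10.5.1.1. A further deposited table holds log2 values that the authors background-corrected and normalized by VSN. Groups and slides came from the labels. The members and lists were chosen with earlier results of these data known.

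Mean signals were corrected by normexp from 153 negative control spots (offset 50) and normalized by an own implementation of VSN, since no such package was at hand. Outlier spots (155 to 206 per array) were left out. Median signals were 86.4 to 145.3 against a background of 21 to 25, and 59.9% to 70.6% of probes were well above background. Probes with a gene name that were well above background throughout 1 genotype or both were tested with limma 3.58.1 (R 4.3.3) in place of the study's SAM, with Benjamini-Hochberg adjustment. The code was tested on simulated data. Figures used matplotlib 3.10.9. Precision is limited by having 7 arrays, and nothing says whether litters were shared between pools.

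Same-numbered arrays share a slide by the labels' barcodes. Deviations from the genotype means correlated at 0.192, 0.239 and 0.0328 on slides 1, 3 and 4. Pairs on different slides ran from −0.22 (mutant pool 1 with wild-type pool 4) to 0.187 (mutant pool 2 with wild-type pool 4). Mutant pool 4 with wild-type pool 1 was at 0.063. Besides the 10 genes, those called in a list were named, or the 4 largest differences where none was, with *Shh*, *Gli1*, *Ptch1*, *Hhip* and the 10 genes most like the sarcomere mean. *Tpm2*, *Isl1* and *Tbx5* were added after their values were seen. One gene that the rule names is not reported here. Alternatives covered the scaling, background correction, filters on dim probes and outliers, array weights, variance trend, slide as a block, the deposited values and each pool left out. Leaving out slide 4, centring the deposited values and leaving *Myh6* out of the atrial genes were added after seeing the data.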

Additional observations from a re-analysis of the deposited data

Results flagged for a closer look

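Among the 4 mutant pools, 2 of 24 measures had 1 pool far from the rest. Chance gives this in about 1 of 20 independent groups, but the 24 measures share the same 4 arrays and are not independent. In most of them the pool farthest from the rest was mutant pool 4. The atrial minus ventricular deviation was 0.21 in mutant pool 4 and −0.68 to −0.57 in the other mutant pools, a gap to the nearest pool of 0.876 of the whole range. The *Myl4* minus *Myl3* deviation was 0.46 in mutant pool 4 and −0.11 to −0.02 in the others, a gap of 0.855 of the range. With quantile normalization the gaps were 0.746 and 0.808 of the range and passed the limit in neither measure, and in the deposited values set to 1 median per array they were 0.22 and 0.402. Wild-type pool 4, on the same slide, had the highest atrial minus ventricular deviation of its genotype (0.65). Groups of 3 were not tested.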

How the results depend on the processing

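The counts of 0 for the 10 sarcomere genes and for the other sarcomere genes held in every alternative in which they were computed, and the lowest adjusted p (limma) of a sarcomere gene was 0.157 (*Myh6*, without mutant pool 4). The number of all probes called was 129, and became 56 with the 75th percentile scaling, 33 without a filter on dim probes, 548 with array weights, 11 with the replicate block (slide), 0 in the deposited values (limma) as given or set to 1 median per array, and 5 without slide 4. With 1 pool left out it ran from 12 (without mutant pool 3) to 136. The replicate block gave a median difference of 0.22 for the 10 genes and −0.31 for atrial minus ventricular genes, which was −0.12 with array weights and −0.23 in the deposited values. Of 210 values of single genes under alternatives, 185 kept their sign. Those that turned were *Myl7* with the 75th percentile scaling (−0.0029), quantile normalization (−0.0081), no background correction (−0.038), array weights (−0.029) and without slide 4 (−0.22), *Myh7* with array weights (−0.15) and *Tnnc1* without slide 4 (−0.0102). In the deposited values as given, where the median of all probes was −0.54, *Myh6* (−0.17), *Myl7* (−0.0773), *Myl3* (−0.10), *Tnnt2* (−0.03), *Tnni3* (−0.22), *Tnnc1* (−0.49) and *Actc1* (−0.13) turned, and the median of the 10 genes was −0.088. Set to 1 median per array it was 0.52. With 1 pool left out, 6 genes turned without wild-type pool 4. Without mutant pool 1, *Myl7* (−0.053), *Tnnc1* (−0.050) and *Actc1* (−0.081) also turned. So did *Tnnc1* without mutant pool 3 (−0.041) and *Myl7* without mutant pool 4 (−0.067). The values ran from −0.141 to 0.143 for *Myl7*, from −0.139 to 0.769 for *Myh7*, from −0.0944 to 0.567 for *Myl3*, from −0.0713 to 0.569 for *Tnni3*, from −0.272 to 0.340 for *Tnnc1* and from −0.117 to 0.375 for *Actc1*. The others kept their sign, from 0.642 to 1.68 for *Myl2*, from 0.0488 to 0.662 for *Myh6*, from 0.103 to 0.509 for *Myl4* and from 0.0527 to 0.427 for *Tnnt2*. The cause was not tested. With 3 or 4 pools a genotype and the spread given, only changes well above the intervals printed could be detected.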
